A study of Mus musculus with 2 samples.

Results

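Natural killer (NK) cells of melanomas that carried almost no transcripts of the Ly49 receptor genes Klra4, Klra8 and Klra9 were described in 1 library from wild-type (WT) hosts and 1 library from hosts labelled Siah2-/-. A cell was taken when the deposited raw count table gave it at least 1 unique molecular identifier (UMI, which stands for 1 captured transcript) of Ncr1 and at least 1 of Klrb1c, 0 of Cd3d and Cd3e, 0 of Csf1r, and at most 1 UMI of Klra4, Klra8 and Klra9 together. This gave 232 of 10100 cells, 114 of 4524 in WT and 118 of 5576 in the library labelled Siah2-/-. The 8 genes of the rule chose the cells, so their values below are a description. The cells are called Klra4/8/9-low NK cells, and the 471 cells (205 in WT and 266 in Siah2-/-) that passed the same gate with more than 1 of those UMIs are called Klra4/8/9-positive NK cells.

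NK cells kill stressed and transformed cells without prior priming and secrete interferon-γ and chemokines. In mice, the Klra genes encode the Ly49 receptors, lectin-like proteins of which each NK cell displays its own combination. Inhibitory Ly49 receptors bind MHC class I on healthy cells and restrain killing, while Ly49D (Klra4) and Ly49H (Klra8) activate through the adaptor DAP12. The heterodimer of CD94 (Klrd1) and NKG2A (Klrc1) is another inhibitory receptor for MHC class I, and it appears earlier in NK cell development than most Ly49 receptors. Type 1 innate lymphoid cells (ILC1) are tissue-resident relatives that share NK1.1 (Klrb1c) and NKp46 (Ncr1) with NK cells and often lack Eomes and most Ly49 receptors.

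The hosts were male C57BL/6 mice of 8 weeks, either WT or Siah2-/-, that bore tumors of YUMMER1.7, an immunogenic BRAF-mutant mouse melanoma line, for 11 days. Siah2 encodes a ubiquitin ligase and was deleted in the host, not in the injected tumor cells. Live CD45+ cells were sorted from tumors pooled by genotype, sorted CD45- cells were added back in a smaller part, and 1 droplet library with 10x 3′ v2 chemistry was made from each genotype, to ask how loss of Siah2 alters the immune infiltrate. Genotype, tumor pool, library and sequencing lane cannot be told apart, no result between genotypes has a replicate, and all intervals are 95% intervals that cover counting error only.

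The libraries differed in depth, and this touches each value below. Over all cells the median was 11425 UMIs in WT and 8683 in Siah2-/-, and the lowest UMI count of a kept cell was 6670 and 4896. Klra4/8/9-low NK cells held 1222524 and 987707 UMIs in all, with a median per cell of 9202.5 (6729 to 32722) in WT and 7391.5 (4896 to 22420) in Siah2-/-, close to the 9384 and 7830 of Klra4/8/9-positive NK cells. From the level of 5 macrophage genes in droplets with 100 or fewer UMIs, free RNA was put at 4.20% of the UMIs of the Klra4/8/9-low cells in WT and 4.86% in Siah2-/-, if these cells make none of those transcripts themselves. By this estimate a low cell would hold only such a part of the levels in empty droplets given below. The libraries shared 34 cell barcodes, none of them a Klra4/8/9-low cell in both. Siah2 itself had 9 UMIs in the WT cells and 2 UMIs in the cells labelled Siah2-/-, or 7.36 and 2.02 CPM, the UMIs of a gene per 1000000 UMIs of the same cells. Its log2 ratio of −1.86 had an interval of −5.11 to 0.41, and in macrophages the ratio was −0.07. Neither the labels nor the methods say which exons the knockout lacks, and the assay reads 3′ ends. The Siah2 UMIs therefore say nothing for or against the genotype label.

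The limit on Klra4, Klra8 and Klra9 fell just past a peak of cells at 0 UMIs, as the plot of their UMIs per cell shows. No gap in the distribution marked it. Of the chosen cells, 102 in WT and 105 in Siah2-/- had 0 of these UMIs and 12 and 13 had 1. Just outside the limit, 10 WT and 6 Siah2-/- cells had 2 UMIs and 8 and 15 had 3. Further out, 9 WT and 9 Siah2-/- cells had 4 UMIs and 16 and 9 had 5. Klra4/8/9-positive NK cells had a median of 11 and 13 UMIs and reached 45 and 59.

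**Figure D1:**
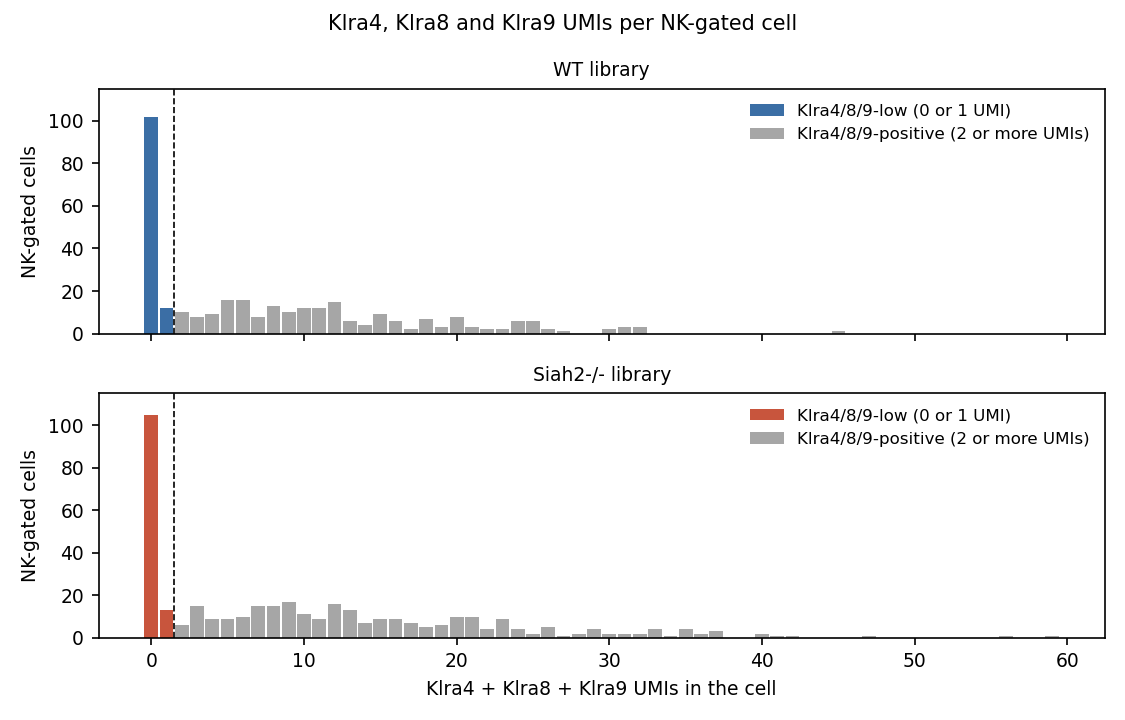
Number of NK-gated cells (vertical axis) by the sum of Klra4, Klra8 and Klra9 UMIs in the cell (horizontal axis), 1 panel for each library, with the cells chosen by the rule colored. In both libraries a peak of 102 and 105 cells at 0 UMIs stands above a broad range that starts at 1 UMI and reaches 45 and 59 UMIs.

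These cells were low in the 3 genes of the rule and still held transcripts of other Ly49 genes. Of 5 other Ly49 genes tested against Klra4/8/9-positive NK cells, Klra1, Klra6 and Klra7 had lower levels in both libraries and Klra5 higher ones. Of the 5, only Klra1 passed the test described below, and the median log2 fold change was −0.62 (−0.48 within WT and −0.67 within Siah2-/-). Klra7 (Ly49G, an inhibitory receptor) had 547 UMIs in the WT and 548 in the Siah2-/- cells, and Klra3 (Ly49C, also inhibitory) had 225 and 148. Of 114 WT cells, 35 had UMIs of Klra7 but not Klra3, 20 of Klra3 but not Klra7, 16 of both and 43 of neither. Of 118 Siah2-/- cells, the counts were 39, 16, 16 and 47. Klra1, Klra3, Klra5, Klra6 or Klra7 was detected in 71.1% of WT and 68.6% of Siah2-/- cells, against 86.3% and 85.0% of Klra4/8/9-positive NK cells and a background of 5.02% and 10.7% in macrophages, which should lack them.

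When every cell was thinned to 4000 UMIs, a depth that all cells reached, Klra7 was found in 39.5% (WT) and 41.5% (Siah2-/-) of Klra4/8/9-low cells and in 61.5% and 63.9% of Klra4/8/9-positive cells. Klra3 was found in 28.1% and 23.7% of the former and in 27.3% and 32.0% of the latter, so the classes overlapped for Klra3. The genes lie side by side on the minus strand of chromosome 6 of GRCm38, in the GENCODE vM21 annotation, from Klra5 (129898996 to 129917650) over Klra4 (130043731 to 130067271), Klra8 (130115226 to 130129898), Klra9 (130178675 to 130193112) and Klra7 (130218605 to 130233322) to Klra1 (130363917 to 130386874). They are relatives, and reads may be split between them. In the last 500 bases of their longest coding transcripts, 9.76% of the 91-base windows of Klra7, 13.7% of those of Klra9 and 8.05% of those of Klra3 occurred unaltered in a transcript of another Klra gene, and 0% of those of Klra1, Klra4, Klra5, Klra6 and Klra8. Of Klra1, Klra3, Klra5, Klra6 and Klra7, only Klra3 shared such windows with a gene of the rule (0.488%, with Klra9). Windows with a mismatch were not searched, so Klra values are uncertain and are not taken as independent of the rule.

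The NK cell identity given by Ncr1 and Klrb1c was checked on the other NK markers. Klrd1 (CD94) was found in 113 of 114 WT and 116 of 118 Siah2-/- cells, Klrk1 (NKG2D, an activating receptor) in 113 and 118, and Nkg7 (a cytotoxic granule protein) in 113 and 118. Of the 14 NK markers, only Itga2 (CD49b) was near 0, with 0 and 1 UMIs. It was also near 0 in Klra4/8/9-positive cells, at 1.80 CPM in WT and 2.19 CPM in Siah2-/-. Eomes, a transcription factor of NK cells that most ILC1 lack, had 89 UMIs over 55 WT cells and 76 UMIs over 47 Siah2-/- cells, and Tbx21 (T-bet, shared by NK cells and ILC1) had 68 and 100 UMIs. The NK marker list summed to 11848 and 15320 CPM in these cells and to 12552 and 20842 CPM in Klra4/8/9-positive cells.

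Markers of other cells were at low levels. Of 10 T cell markers in the table, Cd3d and Cd3e are 0 by the rule, Themis and Foxp3 had no UMI in either library, and the list summed to 73.6 CPM in WT and 81.0 CPM in Siah2-/- against 57.0 and 95.2 CPM in Klra4/8/9-positive cells and 1664 and 2011 CPM in empty droplets. Cd3g, Cd8a, Cd8b1 or Cd4 was detected in 20.2% and 36.4% of Klra4/8/9-low cells and in 20.0% and 35.7% of Klra4/8/9-positive cells. The 14 macrophage markers, with Csf1r at 0 by the rule, summed to 826 and 928 CPM against 726 and 936 CPM in the positive cells. The 12 dendritic cell markers summed to 553 and 928 CPM against 825 and 1113 CPM in the positive cells, and the B cell, basophil and mast cell, neutrophil and erythroid lists each stayed at or under 18.8 CPM in the low cells. The 7 markers of ILC2 and ILC3 in the table summed to 54.0 and 71.9 CPM against 55.6 and 57.9 CPM in the positive cells and 50.0 and 82.0 CPM in empty droplets, and 56 of 66 and 55 of 71 of their UMIs in the low cells were of Gata3, which NK cells also express.

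The libraries were unequal in stromal transcripts. The 13 markers of tumor and stroma, among them collagen genes, summed to 430.3 CPM (526 UMIs) in WT and 76.9 CPM (76 UMIs) in Siah2-/- cells. The melanocyte genes Pmel, Mlana, Dct and Tyrp1 had no UMI. 5 WT cells, each with 10 or more of these UMIs, held 418 of the 526, and no Siah2-/- cell had as many. Klra4/8/9-positive cells had the same inequality, with 6 such cells in WT and 0 in Siah2-/-. Without these cells the difference in share among all cells was −0.293 points. Between the libraries the median log2 ratio for residency genes was then 1.07 over 9 genes in place of 0.86 over 10, so the gene set also changed. For other activating receptors it was 0.06 in place of 0.20.

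The share of Klra4/8/9-low NK cells among all cells was 2.52% (2.08 to 3.02) for WT against 2.12% (1.75 to 2.53) for Siah2-/-, a difference of −0.404 percentage points (−1.01 to 0.183). Of NK-gated cells they were 35.7% (30.5 to 41.3) in WT and 30.7% (26.1 to 35.6) in Siah2-/-, a difference of −5.01 points (−12.0 to 1.96). Both intervals include 0. With the same lowest UMI count in both libraries the difference among all cells was −0.723 points (−1.34 to −0.104), and with more T cell genes at 0 it was −0.666 points (−1.19 to −0.165), both below 0, while without cells with a Mki67 or Top2a UMI it was 0.166 points (−0.348 to 0.666). Of cells with a UMI of Ptprc, which encodes CD45, they were 3.07% and 2.26%, and that difference of −0.815 points (−1.54 to −0.132) lay below 0. These shares depend on the CD45 sort, the cells added back and the lowest UMI count of each library. When all Klra genes were put under the limit the differences were 0.101 points of all cells and 1.74 points of NK-gated cells, and when the gate was set on cells thinned to 4000 UMIs that of NK-gated cells was −11.9 points (−19.7 to −3.91), below 0.

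Klra4/8/9-low and Klra4/8/9-positive NK cells of the same libraries were compared across 7264 genes with 50 or more UMIs, the genes of the rule left out, by edgeR's quasi-likelihood test on UMIs summed per library and class with the library as a block. At a Benjamini-Hochberg adjusted p of 0.05, 15 genes were higher (0.206% of those tested) and 4 were lower (0.0551%) in Klra4/8/9-low cells, and 451 passed an unadjusted p of 0.05. The replicates of this comparison are 2 libraries of different genotype, which leaves 1 residual degree of freedom. Without the library as a block, no gene passed in edgeR, with 143 at an unadjusted p of 0.05, and DESeq2 called 8 higher and 6 lower, 11 of them among these 19. The other 8 were not called by DESeq2, with adjusted p of 0.078 for Tmem176b, 0.098 for Cd226, 0.16 for Bcl2a1d, 0.18 for Klri2, 0.52 for Pdcd1, 0.74 for Itm2c, 0.90 for Ikzf2 and 0.9999 for Armc7. Over all alternatives of edgeR and DESeq2 the lowest adjusted p of these 8 genes ranged from 8.9e-55 for Tmem176b to 5.1e-08 for Ikzf2 and the highest from 0.22 for Cd226 to 0.9999 for Armc7, and Ikzf2 was called in 11 of 15 alternatives and Pdcd1 in 11 of 13.

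Receptor genes were among the most different. Klrc1, the NKG2A gene, stood at 365 CPM in Klra4/8/9-low against 150.3 CPM in Klra4/8/9-positive cells in WT, and at 690.5 against 229 CPM in Siah2-/- (log2 fold change 1.40, adjusted p = 0.0024 in edgeR's quasi-likelihood test). Both values of the low cells lay above both values of the positive cells. Its partner Klrd1 did not pass, with 1469 against 1369.6 CPM in WT and 1711 against 1631 CPM in Siah2-/-. Klrb1b, an inhibitory NKR-P1 receptor, stood at 171 against 91.1 CPM in WT and 353 against 163.7 CPM in Siah2-/- (0.98, adjusted p = 0.0076 by edgeR). Klri2, which pairs with Klre1, was lower, with 106 against 175 CPM and 112 against 225 CPM (−0.90, adjusted p = 0.014 by edgeR). Of 10 genes tested in the list of NKR-P1, CD94 and NKG2 receptors, these were the 2 higher and the 1 lower, and the median log2 fold change was −0.04, against −0.01 over all genes. Cd226 (DNAM-1, an activating receptor for nectin-like ligands) stood at 27.8 against 3.59 CPM in WT and 28.3 against 3.95 CPM in Siah2-/- (2.83, adjusted p = 0.011 by edgeR). It was the only called gene of 16 activating receptors and adaptors.

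Genes listed for tissue residency and ILC1 were higher in 4 of 18 and lower in 0, with a median log2 fold change of 0.59. The libraries were unequal in this, since the median log2 ratio of low over positive cells was 0.19 in WT and 0.99 in Siah2-/-, against 0.05 and 0.02 over all genes tested. Tmem176a, which encodes an intracellular membrane protein, stood at 46.6 against 4.94 CPM in WT and 98.2 against 7.02 CPM in Siah2-/- (3.53, adjusted p = 0.0012 by edgeR). Its neighbor Tmem176b stood at 97.3 against 19.3 CPM and 126 against 7.02 CPM (3.02, adjusted p = 0.0074 by edgeR). For both genes the 2 summed values of the low cells lay above the 2 of the positive cells, while single cells of the classes overlapped, and empty droplets held 82.6 and 59.8 CPM of Tmem176a and 160.0 and 115.1 CPM of Tmem176b. Cxcr6, a chemokine receptor of resident lymphocytes, had 21 UMIs in low against 1 UMI in positive cells in WT and 61 against 26 UMIs in Siah2-/-, or 17.2 against 0.449 CPM and 61.8 against 11.4 CPM (2.74, adjusted p = 0.034 by edgeR). In WT, 1 cell held 42.9% of its UMIs. Empty droplets held 137 and 249 CPM of Cxcr6, more than the low cells, though free RNA was put at only 4.20% and 4.86% of the UMIs of these cells. Ikzf2, which encodes the transcription factor Helios, stood at 41.7 against 12.1 CPM and 51.6 against 19.7 CPM (1.52, adjusted p = 0.042 by edgeR), while empty droplets held 58.4 and 56.1 CPM. Itga1 (CD49a), a defining integrin of ILC1, did not pass, with 27.8 against 26.0 CPM and 28.3 against 18.9 CPM, and neither did the death ligand gene Tnfsf10 (TRAIL), with 23.7 against 10.3 CPM and 28.3 against 7.90 CPM (adjusted p = 0.17 by edgeR). Il7r, the interleukin-7 receptor gene of many ILC, had 3 UMIs in 2 WT and 7 UMIs in 7 Siah2-/- low cells.

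Genes listed for mature circulating NK cells had a median log2 fold change of −0.21 (−0.08 within WT and −0.49 within Siah2-/-), with 1 of 14 higher and 0 lower. The called gene was Ly6c2, a surface protein found on mature NK cells and memory T cells, at 1062 against 264 CPM in WT and 1267 against 189.6 CPM in Siah2-/- (2.32, adjusted p = 0.0012 by edgeR), while empty droplets held 1036 and 1285 CPM. Eomes stood at 72.8 against 111 CPM and 76.9 against 123 CPM (adjusted p = 0.073 by edgeR). Both its low values lay below both positive values, but it did not pass the threshold. Ly6c2 and Ifitm1 were the 2 of 30 interferon response genes that were higher. Ifitm1, which encodes an interferon-induced membrane protein, stood at 800.0 against 218 CPM in WT and 911 against 210.2 CPM in Siah2-/- (1.95, adjusted p = 0.00042 by edgeR), while empty droplets held 479 and 1517 CPM. The median of that list was −0.03.

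Checkpoint genes differed in 2 of 13, both higher. Pdcd1 (PD-1) had 46 UMIs in low and 0 UMIs in positive cells in WT, and 74 against 9 UMIs in Siah2-/- (adjusted p = 0.0045 by edgeR). Against a floor of 3 UMIs its level was at least 28.0-fold higher in WT, and it was 19.0-fold higher in Siah2-/-. The UMIs came from 11 WT and 10 Siah2-/- cells, and 1 cell held 26.1% of them in WT and 23.0% in Siah2-/-. The low cells held 37.6 and 74.9 CPM, and empty droplets 41.4 and 56.9 CPM. Klrc1, described above, was the other. Lag3, a further checkpoint receptor gene, stood at 239 against 154 CPM and 313 against 165 CPM (adjusted p = 0.052 by edgeR).

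Effector genes moved in both directions. Gzmc, which encodes granzyme C, was the most abundant granzyme transcript of the low cells in both libraries, at 13168 against 7331 CPM in WT and 8444 against 3064 CPM in Siah2-/- (1.11, adjusted p = 0.019 by edgeR). In the Siah2-/- positive cells Gzma, at 10761 CPM, and Gzmb stood above it. Gzmc was the only called gene of 20 granule and death ligand genes. Gzmb (granzyme B) stood at 2644.5 against 3394 CPM and 2909.8 against 4238 CPM (adjusted p = 0.075 by edgeR), and Prf1 (perforin) at 110.4 against 144 CPM and 142 against 194 CPM (adjusted p = 0.20 by edgeR). The chemokine gene Ccl3 was lower, at 14.7 against 69.6 CPM in WT and 50.6 against 148 CPM in Siah2-/- (−1.82, adjusted p = 0.0062 by edgeR), and was the only called gene of 12 cytokine and chemokine genes. A single cell held 50.0% of its UMIs in the WT low cells. Spp1 (osteopontin) was lower, at 1902 against 2688 CPM and 1474 against 2388 CPM (−0.64, adjusted p = 0.031 by edgeR). With more T cell genes required at 0, Ccl3 (adjusted p = 0.37) and Spp1 (adjusted p = 0.90) were no longer called by edgeR. Over 15 alternatives, Ccl3 was called in 12 and Spp1 in 11, with adjusted p of edgeR or DESeq2 from 4.4e-22 and 1.3e-23 up to 0.9998 for both.

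The other called genes were Klra1, a relative of the genes of the rule that stood at 41.7 against 119.8 CPM and 54.7 against 138 CPM and is given as a description, and Bcl2a1d, Itm2c, Armc7 and 5430421N21Rik, all higher. Bcl2a1d, a copy of the survival gene A1 with close relatives, stood at 129 against 58.8 CPM and 133 against 60.1 CPM, while empty droplets held 162 and 173 CPM. None of the S phase and G2/M genes, cytokine receptor genes or immediate early genes was called. The plot of the called genes shows their levels in each library.

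**Figure D2:**
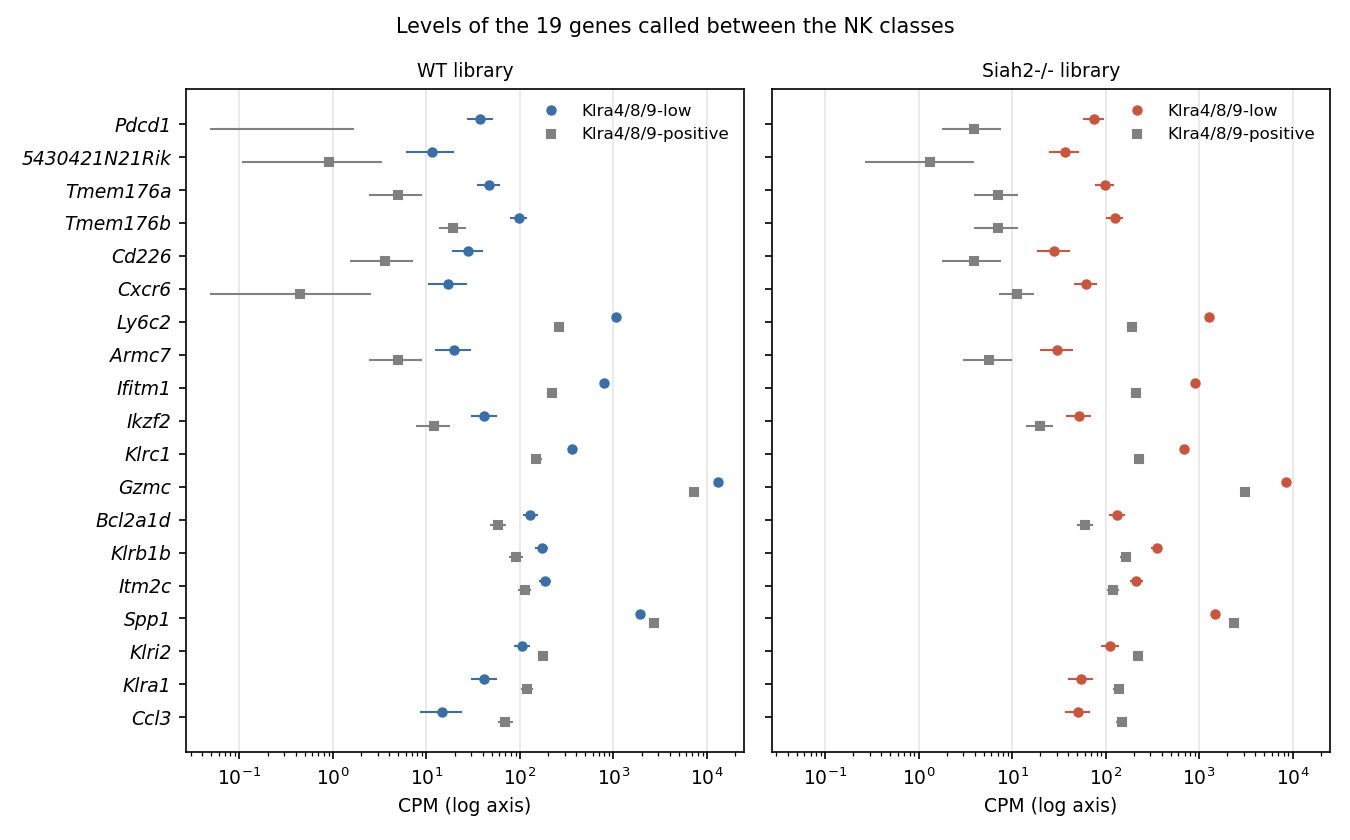
Level of the 19 called genes in CPM on a log axis, for Klra4/8/9-low (circles) and Klra4/8/9-positive (squares) NK cells, with 1 panel for each library and 95% Poisson intervals for counting error. Pdcd1 had 0 UMIs in WT positive cells and is drawn as its interval alone, which is cut at the left edge of the axis. Low cells lie to the right of positive cells for the 15 genes from Pdcd1 down to Itm2c and to the left for Spp1, Klri2, Klra1 and Ccl3.

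These genes were also counted as the share of cells in which they were detected at equal depth. In cells thinned to 4000 UMIs, Klrc1 was found in 60.5% of WT and 80.5% of Siah2-/- low cells against 37.1% and 37.6% of positive cells, with 0.408% and 2.08% of macrophages as background. Ly6c2 was found in 49.1% and 44.9% against 19.0% and 24.8%, but macrophages held it in 58.7% and 71.9%. Tmem176b was found in 18.4% and 22.0% against 3.41% and 1.50%, with 49.1% and 16.1% in macrophages. Pdcd1 was found in 8.77% and 6.78% against 0% and 0.752%, with 0.992% and 1.61% in macrophages. The 0 of 205 WT positive cells allow up to 1.78% of cells with a Pdcd1 UMI by the exact binomial interval, which limits detection and not the cells that express the gene. Klrc1 was thus detected in most low cells, and Tmem176b and Pdcd1 in fewer, and a cell without a UMI at this depth can still carry the transcript.

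**Figure D3:**
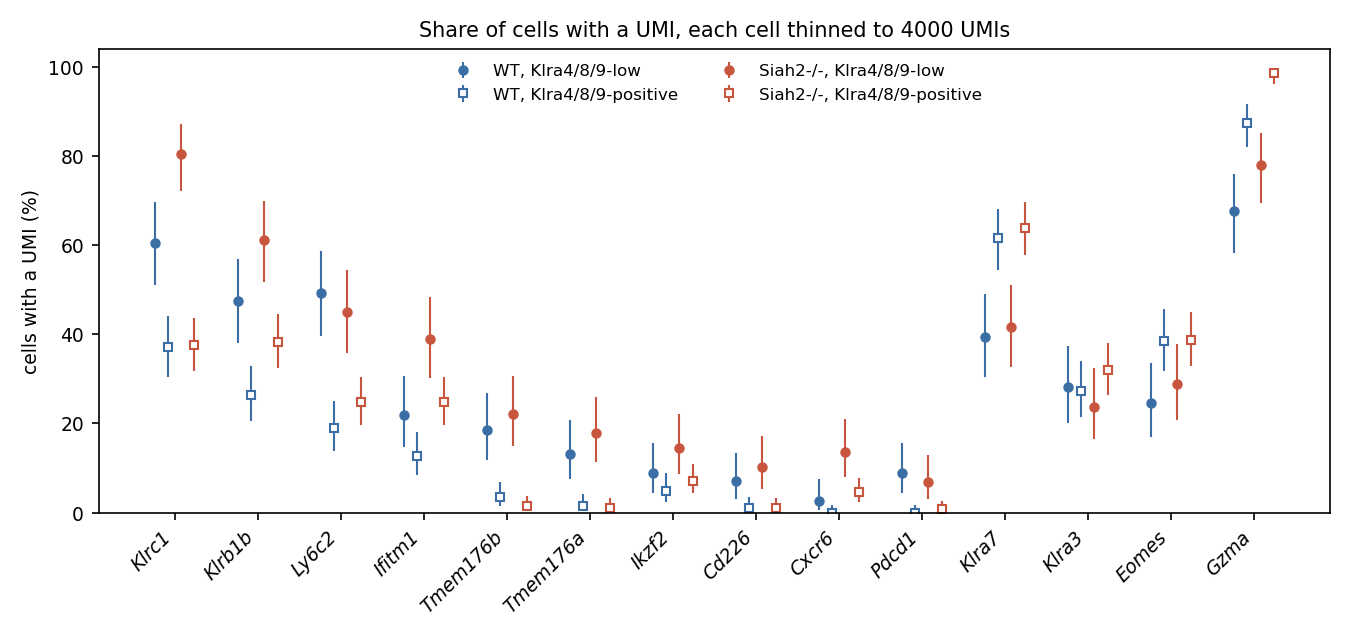
Share of cells with at least 1 UMI of each of 14 genes (vertical axis, percent) after thinning every cell to 4000 UMIs, for Klra4/8/9-low (circles) and Klra4/8/9-positive (open squares) NK cells of each library, with exact binomial intervals. Klrc1 reached 60.5% and 80.5% of the low cells against 37.1% and 37.6% of the positive cells, while Klra7 and Gzma were found in more of the positive cells.

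Genes found in few low cells were in part found in the same cells. Of low cells with a Tmem176b UMI, 63.3% in WT and 65.8% in Siah2-/- had a Tmem176a UMI, against 2.38% and 2.50% of those without. Eomes was seen in 16.7% (5 of 30) and 23.7% (9 of 38) of Tmem176b-positive low cells and in 59.5% and 47.5% of the others. Ly6c2, which was found in 55.3% and 52.5% of low cells, was seen in 11 of 11 WT and 9 of 10 Siah2-/- cells with a Pdcd1 UMI. Tmem176b was seen in 7 of those 11 and 6 of those 10 cells, against 22.3% and 29.6% of cells without Pdcd1. It was seen in 6 of 7 and 11 of 24 cells with a Cxcr6 UMI, against 22.4% and 28.7% of cells without. Pdcd1 and Cxcr6 were seldom found together in WT, where 1 of 11 cells with Pdcd1 had a Cxcr6 UMI (9.09% against 5.83% of those without Pdcd1), and 4 of 10 did in Siah2-/- (against 18.5%). These are counts in unthinned cells of 2 libraries and were not tested.

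Pdcd1, Cxcr6 and Ly6c2 are also genes of T cells, and CD8 T cells by gate held them in 56.4%, 73.1% and 85.3% (WT) and 41.0%, 79.4% and 90.6% (Siah2-/-) of thinned cells. Cd3g, Cd8a, Cd8b1 or Cd4 was detected in 1 of 11 WT and 3 of 10 Siah2-/- low cells with Pdcd1, against 21.4% and 37.0% of low cells without it. For Ly6c2 the shares were 20.6% in WT and 45.2% in Siah2-/- low cells with it against 19.6% and 26.8% of those without, and for Tmem176b 10.0% and 47.4% against 23.8% and 31.3%. These shares are of unthinned cells and were not tested, and for Tmem176b they stood in opposite order in the libraries. When cells with UMIs of Cd3g, Cd8a or Cd8b1 were left out as well, 166 low cells remained, and Pdcd1 (log2 fold change 4.96), Ly6c2 (2.17), Cxcr6 (2.56), Tmem176a (3.71) and Klrc1 (1.29) were still called by edgeR.

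Klrc1 and Ly6c2 were detected in fewer of the low cells with a Klra7 UMI than of those without. Klrc1 was seen in 33 of 51 WT (64.7%) and 43 of 55 Siah2-/- (78.2%) low cells with a Klra7 UMI and in 58 of 63 (92.1%) in both libraries of those without. Ly6c2 was seen in 39.2% and 45.5% of Klra7-positive and in 68.3% and 58.7% of Klra7-negative low cells. These shares are of unthinned cells and were not tested, and Klra7 is not taken as independent of the rule.

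Between the libraries, 2502 genes had 100 or more UMIs over the Klra4/8/9-low cells. In Siah2-/- relative to WT, 79 of them were at least 2-fold higher (3.16%) and 53 at least 2-fold lower (2.12%), with no test because there is 1 library each. The median log2 ratio of all was −0.02, and 1185 of the 2502 (47.4%) had a ratio above 0. A single cell held over 20% of the UMIs of 26 of the 53 lower genes and 2 of the 79 higher genes. Without the 5 WT cells rich in stromal UMIs, an alternative added after the data had been seen, the counts were 77 and 25. Of the 79 higher genes, 42 (53.2%) were also at least 2-fold higher in Klra4/8/9-positive NK cells, where they were 77.8% of 54, and 48 (60.8%) in CD8 T cells, where they were 58.5% of 82. Of the 53 lower genes, 19 (35.8%) were also at least 2-fold lower in Klra4/8/9-positive cells, where they were 63.3% of 30.

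Cell cycle genes were lower in the Siah2-/- than in the WT low cells. None of the 20 S phase and G2/M genes tested was higher and 10 were at least 2-fold lower, against 47.4% and 2.12% of all genes. Their median log2 ratio was −1.01. All 35 genes of the list summed to 5504 CPM in WT and 2685 CPM in Siah2-/-, a log2 ratio of −1.04 (−1.10 to −0.97). Top2a, which encodes the topoisomerase that untangles replicated DNA, had 121 UMIs in 33 WT cells and 22 UMIs in 18 Siah2-/- cells, 99.0 and 22.3 CPM (log2 ratio −2.15, −2.88 to −1.49). Birc5 (survivin, needed for chromosome segregation) went from 116 to 27.3 CPM (−2.09) and Stmn1 (stathmin, a microtubule regulator) from 469 to 117 CPM (interval of the log2 ratio −2.30 to −1.71). In Siah2-/-, the cell with most UMIs held 37.0% of those of Birc5 and 28.4% of those of Stmn1. Tubb5, a tubulin, went from 647 to 247 CPM (−1.39), Cks1b, a partner of cyclin-dependent kinases, from 129 to 42.5 CPM (−1.60), Mcm7, part of the replicative helicase, from 88.3 to 31.4 CPM (−1.49), and H2afx, a histone variant that marks DNA breaks, from 141 to 54.7 CPM (−1.36). Mki67, which encodes Ki67, had 49 UMIs in 19 cells and 8 UMIs in 5 cells.

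In Klra4/8/9-positive NK cells the cycle list stood at 4361 and 3838 CPM, a log2 ratio of −0.18 (−0.23 to −0.14), while it was −0.84 in CD8 T cells, −0.60 in macrophages and −0.39 in empty droplets. The WT low cells were above the WT positive cells, and the Siah2-/- low cells were below the Siah2-/- positive cells. The log2 ratio of low cells minus that of positive cells was −1.88 (−2.62 to −1.13) for Top2a, −1.83 (−2.52 to −1.13) for Birc5, −1.15 (−1.49 to −0.82) for Stmn1 and −1.19 (−1.42 to −0.95) for Tubb5. These intervals cover counting error and not the spread between cells, pools or libraries.

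A Mki67 or Top2a UMI was seen in 42 of 114 WT low cells (36.8%) and 20 of 118 Siah2-/- low cells (16.9%), and in 22.8% and 8.47% at 4000 UMIs per cell. In Klra4/8/9-positive cells it was 11.7% and 10.5% at that depth, and in macrophages 12.6% and 6.02%. The WT low cells thus had the highest share of the 4 NK groups. Without the cells that had either UMI the list median was −0.15 over 8 genes, in place of 20. That setting takes out cells by genes of the cycle being measured, so a smaller difference was built in. With all Klra genes under the limit the list median was −0.54 over the 7 genes that then had enough UMIs. Stromal UMIs moved with the cycle difference, and without the 5 cells that held most of them the list median was −1.07.

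**Figure D4:**
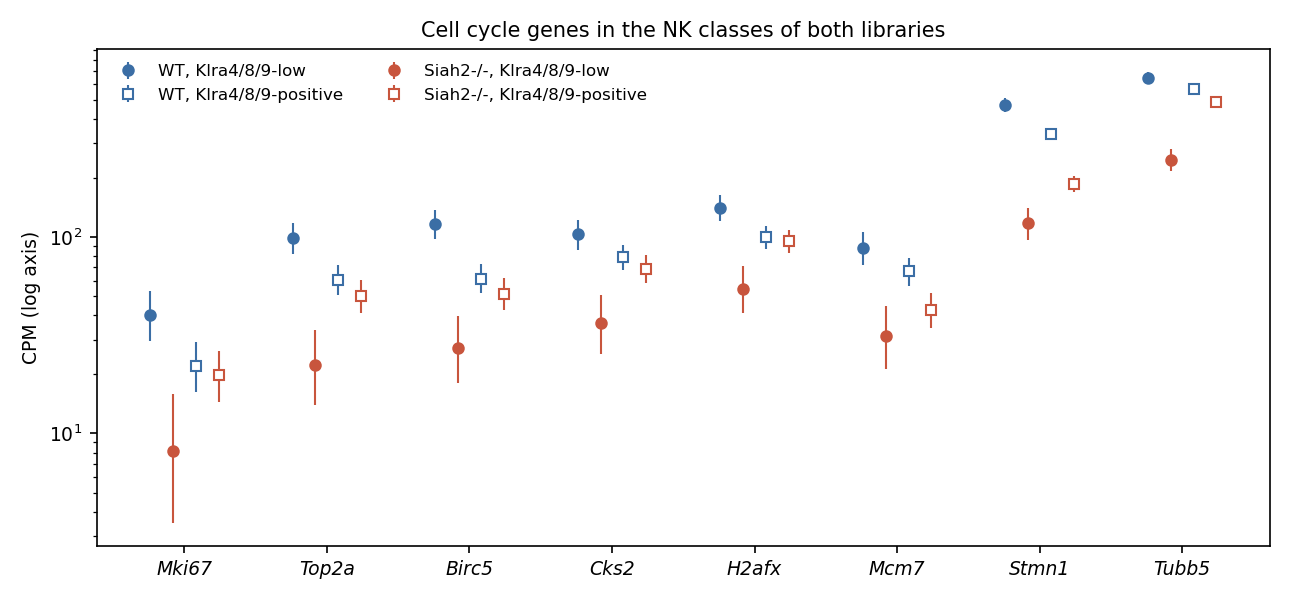
Level of 8 cell cycle genes in CPM on a log axis, for Klra4/8/9-low (circles) and Klra4/8/9-positive (open squares) NK cells of the WT (blue) and Siah2-/- (red) library, with 95% Poisson intervals for counting error. For each gene the WT low cells are highest and the Siah2-/- low cells lowest, as for Top2a with 99.0 against 22.3 CPM, and the positive cells of both libraries lie between.

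Immediate early and stress genes, which respond within minutes to receptor signals or handling, were higher in Siah2-/-. Of 18 tested, 17 were higher and 9 at least 2-fold, against 47.4% and 3.16% of all genes, with a median log2 ratio of 0.94. Dusp1, a phosphatase that ends MAP kinase signals, went from 133 to 466 CPM (1.80, 1.54 to 2.07), Fos from 117 to 313 CPM (1.42), Junb from 654 to 1422 CPM (1.12) and Btg2 from 349 to 782 CPM (1.16). Nr4a2, a nuclear receptor induced by antigen and cytokine receptors, went from 23.7 to 84.0 CPM (1.82). The summed list had a log2 ratio of 0.86 in the low cells and of 0.60 in Klra4/8/9-positive cells, 0.66 in CD8 T cells, 0.81 in macrophages and 0.69 in empty droplets, so the inequality was present in every group measured, cell-free droplets included. Fos was found in 26.3% of WT and 61.0% of Siah2-/- thinned low cells and in 89.1% and 96.9% of macrophages.

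Residency genes had 9 of 10 members higher and 5 at least 2-fold, against 47.4% and 3.16% of all genes, and a median of 0.86. That median was 0.51 with more T cell genes at 0, 0.55 in thinned cells, 0.53 with a minimum of 30 UMIs and 0.55 with no minimum. These medians are over 9, 7, 16 and 23 genes. Gpr183, a receptor for oxysterols that guides lymphocyte positioning, had the highest log2 ratio of the genes not led by 1 cell, from 26 UMIs in 22 WT cells to 118 UMIs in 46 Siah2-/- cells, or 21.3 to 119.5 CPM (2.49, 1.87 to 3.16). In Klra4/8/9-positive cells it went from 21.5 to 36.4 CPM (0.76), a ratio lower by 1.73 (0.93 to 2.53). Rgs1 and Rgs2, which damp chemokine receptor signals, went from 756 to 2068 CPM (1.45) and from 163.6 to 513 CPM (1.65). They were also higher in Siah2-/- among Klra4/8/9-positive cells (1.28 for Rgs1 and 1.27 for Rgs2) and CD8 T cells (1.07 and 1.31). Cd69, a retention and early activation receptor, went from 91.6 to 223 CPM (1.28), with a log2 ratio of 0.76 in positive cells and 0.90 in CD8 T cells. Tmem176a went from 46.6 to 98.2 CPM (1.07). Xcl1, a chemokine gene for cross-presenting dendritic cells that is also in this list, went the other way, from 2130.0 to 1664 CPM (−0.36). Cd69, Rgs1 and Rgs2 are themselves genes that rise early after stimulation.

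Among chemokine and cytokine genes, 6 of 7 were higher, against 47.4% of all genes. Ccl5 went from 266 to 894 CPM (1.75, 1.56 to 1.94) and Ccl4 from 106 to 337 CPM (1.68), with 27.1% and 31.5% of the Ccl4 UMIs in 1 cell. Ifng went from 63.0 to 126 CPM (1.00, 0.57 to 1.42), against 68.7 and 182 CPM in Klra4/8/9-positive cells. Ltb, a lymphotoxin chain, went from 329.7 to 512 CPM (0.64) in low cells and from 208 to 205 CPM (−0.02) in positive cells. Of 8 cytokine receptor genes tested, all were higher, against 47.4% of all genes, among them Il10ra (1.31) and Ifngr1 (0.94), and the summed list had a log2 ratio of 0.54 in low and 0.52 in positive cells.

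Granule genes differed in both directions. Their median log2 ratio was 0.12, while the summed level went from 36933 to 26522 UMIs, a log2 ratio of CPM of −0.17 (−0.19 to −0.15). In Klra4/8/9-positive cells the sum went from 23554 to 30603 CPM (0.38). Gzma went from 3831 to 5266 CPM (0.46) in low cells and from 4582 to 10761 CPM (1.23) in positive cells, so the gap between the classes was wider in Siah2-/-. Gzmc went from 13168 to 8444 CPM (−0.64) in low and from 7331 to 3064 CPM (−1.26) in positive cells. Gzmf (−1.88) and Gzmg (−1.79) were more than 2-fold lower in low cells, where 1 WT cell held 28.7% and 76.6% of their UMIs. In positive cells both went the other way, Gzmf from 574 to 1434 CPM (1.32) and Gzmg from 62.4 to 1353 CPM (4.44). CD8 T cells had ratios of 1.70 and 6.86. The ratio of Gzmg in low cells turned to 0.78 with 0 UMIs of the 3 Klra genes, to 2.29 with the gate on thinned cells and to 2.63 with all Klra genes in the limit.

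Receptor genes were mostly within 2-fold between the libraries. Among 11 NKR-P1, CD94 and NKG2 genes, 10 were higher and 1, Klrb1b, at least 2-fold (171 to 353 CPM, 1.05), with a median of 0.48. Of all genes tested, 47.4% were higher and 3.16% at least 2-fold. Klrc1 went from 365 to 690.5 CPM (0.92, 0.75 to 1.10). Klra7 went from 447 to 555 CPM (0.31) and Klra3 from 184 to 149.8 CPM (−0.30, −0.61 to 0.01). Klra5 had 76 and 19 UMIs, with 18.4% and 47.4% in 1 cell. Of 13 activating receptor and adaptor genes, none differed 2-fold.

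Among checkpoint genes, Ctla4 went from 32.7 to 128 CPM (1.96, 1.44 to 2.51) and Cd28, a costimulatory receptor, from 84.2 to 190.3 CPM (1.18). These were the 2 of 10 genes at least 2-fold higher, against 3.16% of all genes. Positive cells had similar ratios for both, 1.86 and 0.87. Tnfrsf9 (4-1BB) went from 595 to 485 CPM (−0.30). Klf2, a transcription factor of lymphocyte trafficking and quiescence, went from 22.9 to 88.1 CPM (1.94) with 21.4% of the WT UMIs in 1 cell, and Cxcr3, a receptor for interferon-induced chemokines, from 43.4 to 95.2 CPM (1.13). Tbx21 went from 55.6 to 101 CPM (0.86) and Eomes from 72.8 to 76.9 CPM (0.08, −0.38 to 0.54).

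Of 28 interferon response genes, 26 were higher and 3 at least 2-fold (Ifit3 1.04, Gbp4 1.04 and Socs3 1.22), with a median of 0.41. Of all genes tested, 47.4% were higher and 3.16% at least 2-fold. Other lists were shifted upward too, with 13 of 13 NK markers, 11 of 11 NK transcription factors and 9 of 9 trafficking genes higher. Granule genes had 10 of 16 higher and cycle genes 0 of 20. The summed list went from 8083 to 10202 CPM (0.34) in low cells and from 6518 to 6792 CPM (0.06) in positive cells, while CD8 T cells had 0.55 and macrophages 0.34. Ifitm2 went from 964 to 1458 CPM (0.60) in low cells and from 671 to 533 CPM (−0.33) in positive cells.

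Glycolysis genes were near the median of all genes, with 7 of 12 higher, none at least 2-fold and a median of 0.10. Of the Siah ligases and their substrates, only Spry2 (85.9 to 144 CPM, 0.74) and Hif1a (77.7 to 114 CPM, 0.56) had 100 UMIs, and Cdkn1b, the p27 gene, had 24 and 32 UMIs (0.72, −0.09 to 1.55). The plot of the gene lists sets their summed ratios beside those of other cells.

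**Figure D5:**
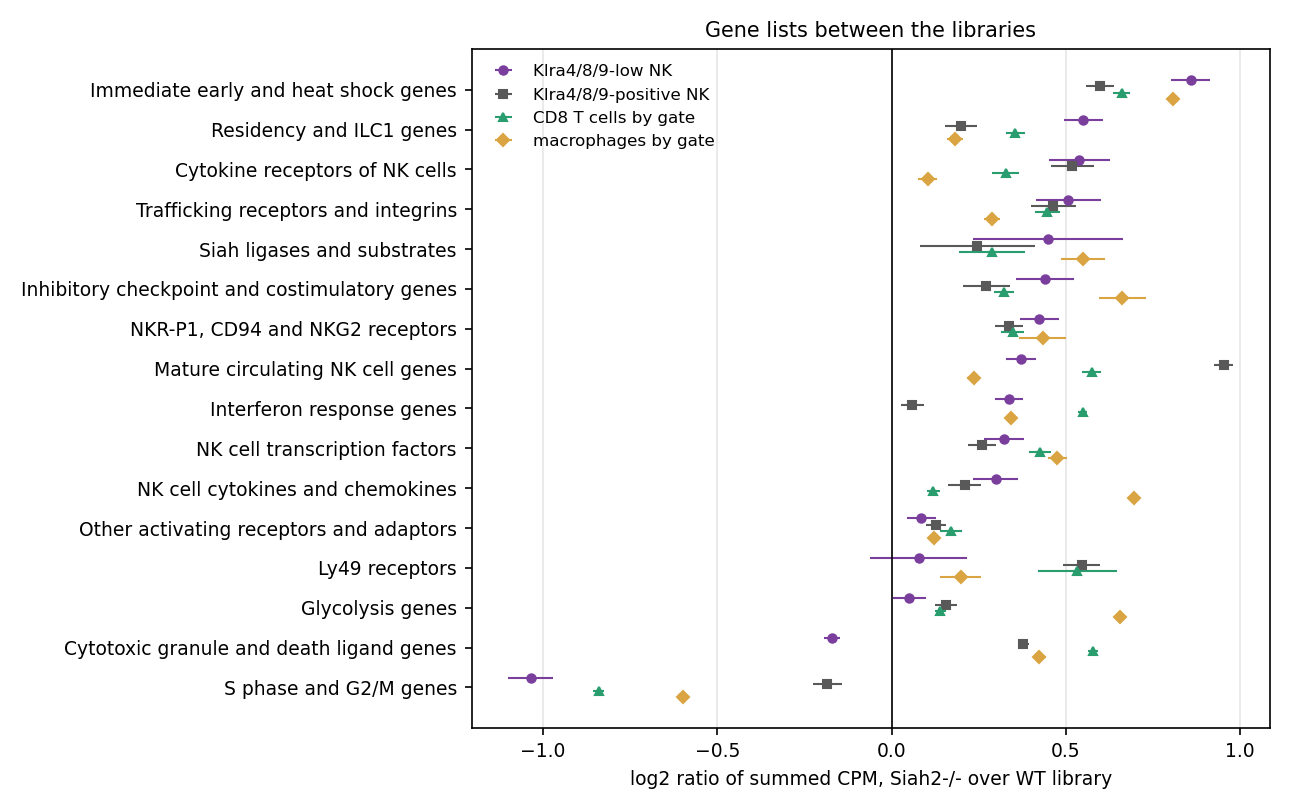
Log2 ratio of summed CPM, Siah2-/- over WT library, for 16 gene lists (horizontal axis) in Klra4/8/9-low NK cells, Klra4/8/9-positive NK cells, CD8 T cells and macrophages by gate, with intervals for counting error. The cycle list is at −1.04 in low and −0.18 in positive NK cells, and the immediate early list is above 0.59 in each group. The Ly49 list holds the genes of the rule.

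The most abundant transcripts other than mitochondrial and ribosomal ones were close between the libraries. Tmsb4x went from 21905 to 23857 CPM (0.12), B2m, the light chain of MHC class I, from 6669.8 to 7591 CPM (0.19) and Actb from 6602 to 7632 CPM (0.21). AW112010 (0.62), Tmsb10 (0.49) and Malat1 (0.43) differed more, and Gzmc (−0.64) was the only one of the 10 with a log2 ratio under −0.5. Rps27rt (1.73) and Rpl36-ps3 (1.78), copies of ribosomal protein genes whose reads are hard to tell from their parents, and Gm9844 (1.87) were among the 10 highest, and had like ratios of 1.75, 1.58 and 1.68 in Klra4/8/9-positive cells.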

How the data were processed

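Per the labels and the methods of the study, the authors made UMI counts per gene and barcode with bcl2fastq and Cell Ranger (version not given in the sources used here) on mm10 (GRCm38). The authors removed the bottom and top 2% of cells by genes detected and cells with over 10% mitochondrial transcripts. The deposited normalized table holds the natural log of 1 plus UMIs scaled to 10000 for 10075 cells, and served only to list them (112 of the WT and 118 of the Siah2-/- low cells). The deposited raw count table, used here, holds 14654 genes and 25 cells more, 2 of them WT low cells, and no stated step accounts for this difference. The deposited unfiltered matrices of counts gave the empty droplets (100 or fewer UMIs).

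The members and gene lists were chosen with earlier results of these data known. Libraries were compared by summed UMIs as CPM, with exact Poisson intervals, exact conditional binomial intervals for ratios, Clopper-Pearson intervals for shares and Newcombe intervals for their differences, at 95%. No p-value was given between genotypes, since each had 1 library, and a gene with 100 or more UMIs counted as different at 2-fold. The classes were compared by edgeR 4.0.16 (glmQLFit, TMM factors, 4 sums, library as a block, 50 or more UMIs, Benjamini-Hochberg over 7264 genes, R 4.3.3), with DESeq2 1.42.0 as an alternative. The libraries come from mice of different genotype, and how many mice each stands for is not stated. With the library as a block, these p-values rest on how far the class difference varied between the 2 libraries. That variation cannot be told apart from genotype, and the p-values do not measure a spread between mice. CD8 T cells were gated by 2 or more Cd3d and Cd3e UMIs, 1 or more of Cd8a and 0 of Ncr1 and Csf1r, and macrophages by 2 or more Csf1r UMIs and 0 of Cd3d, Cd3e and Ncr1. No doublet caller was run, and the 5% of cells with most UMIs were left out as an alternative. Scripts (Python 3.11.15, scipy 1.17.1) were tested on simulated counts. Genes were named where they marked NK cells, were up to 6 of each list past 2-fold or else highest, were among the 10 highest or lowest between libraries or classes, or were among the 10 most abundant. Genes named outside this rule were chosen after their values were seen. Trac, Trbc1, Trbc2 and Klra10 were not analysed here. A few listed genes are not reported here.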

Additional observations from a re-analysis of the deposited data

Results flagged for a closer look

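For 11 of 125 genes (8.80%), Klra4/8/9-low NK cells lay above Klra4/8/9-positive NK cells in one library and below them in the other, in both beyond counting error. The 125 genes were those named for their levels or differences, many for a large ratio between the libraries, and over all 7264 genes of the class comparison the count was 44 (0.606%). Each value is the log2 ratio of low over positive cells, and the difference between the libraries was not tested, since each genotype had 1 library. Cell cycle genes, several of them named for a large ratio, made up 6 of them. Top2a was at 0.71 in WT and −1.17 in Siah2-/-, Birc5 at 0.92 and −0.91, Stmn1 at 0.49 and −0.67, H2afx at 0.49 and −0.80, Cks2 at 0.38 and −0.92, and Tubb5 at 0.20 and −0.99.

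Of the granule genes, Gzmf was at 1.73 in WT and −1.47 in Siah2-/-, and Gzmg at 0.49 and −5.74, with 76.6% of the Gzmg UMIs of the WT low cells in 1 cell. Serpinb9b, a serpin gene, was at 0.61 and −0.59. The opposite order was seen for Il2rg, the common cytokine receptor chain, at −0.23 and 0.23, and for the interferon response gene Ifit3, at −0.57 and 0.69.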

How the results depend on the processing

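The counts of genes at least 2-fold higher and lower in the Siah2-/- low cells (79 and 53) rest on sums in which few cells can lead a gene. The lower count was 20 with 0 UMIs of Klra4, Klra8 and Klra9, 16 with the gate on thinned cells, 30 with 2 or more UMIs of Ncr1 and of Klrb1c, 32 without the 5% of cells with most UMIs, 35 without the top cell of each gene and, among alternatives added after the data had been seen, 10 without cells with a Mki67 or Top2a UMI and 25 without cells rich in stromal UMIs. Both counts moved with all Klra genes in the limit (42 higher, 18 lower), in thinned cells (44 and 6), with no minimum on UMIs (967 and 1185) and with a minimum of 30 (205 and 217). The log2 ratio changed sign for Gzmg, to 0.78 with 0 UMIs of the 3 Klra genes, 2.29 with the gate on thinned cells and 2.63 with all Klra genes in the limit, for Rrm1 to 0.11 with all Klra genes in the limit, and for H2afx to 0.26 without Mki67 or Top2a cells.

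Between the classes, 15 genes were called higher and 4 lower by edgeR. The counts were 65 and 75 with 0 UMIs of the 3 Klra genes, 41 and 24 with 2 or more UMIs of Ncr1 and of Klrb1c, 80 and 61 with all Klra genes in the limit, 43 and 19 for cells in the normalized table, 50 and 14 with the gate on thinned cells, 63 and 21 without TMM, 35 and 3 with more T cell genes at 0, 80 and 41 with no minimum beyond 1 UMI, 73 and 40 with the same lowest UMI count, 35 and 15 in thinned cells, 51 and 16 without the 5% with most UMIs, 36 and 17 without stroma-rich cells and 40 and 33 without Mki67 or Top2a cells. DESeq2 called 8 and 6. With no library block the counts were 0 and 0. The same 19 genes were all called in 5 of these alternatives, and 11 of them by DESeq2. All 19 kept their direction without the block, which could hardly be otherwise, since each went the same way in both libraries. Spp1 had a log2 fold change of 0.021 with the gate on thinned cells. The Siah2-/- minus WT share of low cells with a Klrc1 UMI was 20.0 points in cells thinned to 4000 UMIs and 5.77 unthinned, and that with a Ccl5 UMI was 27.9 points and 12.0 in cells thinned to 2000. The causes of these moves were not tested. The median of the cycle list was below 0 under every alternative, from −1.40 to −0.15. The value of −0.15 was without Mki67 or Top2a cells, a setting that narrows this difference by design. The median of the Ly49 list, 0.31 over 3 genes, was below 0 in 7 of 17 alternatives that gave one and lowest, at −0.71, with the gate on thinned cells. That of other activating receptors (0.20) ranged from 0.04 to 0.21, that of granule genes (0.12) from −0.01 to 0.21 and that of glycolysis genes (0.10) from −0.07 to 0.15. No paired analysis was possible because each genotype had 1 library, and replicate numbers do not link the libraries.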

Other observations

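Thinned Klra4/8/9-low NK cells with a Gpr183 UMI were 7.02% of cells in WT and 28.0% in Siah2-/-, while Klra4/8/9-positive cells had 7.32% and 12.4%. Ctla4 was found in 13.2% and 34.7% of the low and 7.80% and 25.6% of the positive cells, and Klf2 in 7.89% and 24.6% of the low and 4.88% and 27.1% of the positive cells. These shares are values of 1 library each and were not tested.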
